A study of Mus musculus with 12 samples.

Results

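The Hox aadd mutant chondrocytes of the E15.5 mouse forelimb zeugopod, the segment that holds the ulna and radius, were compared with the WT proliferative chondrocytes of the same segment. Homozygous aadd embryos carry frameshift mutations in the first exons of Hoxa9, Hoxa10, Hoxa11, Hoxd9, Hoxd10 and Hoxd11, made by inserting a LoxP site together with a small deletion. All samples were on a mixed 129/CD-1 background, were collected at E15.5 by laser capture microdissection and were profiled by RNA-Seq, with 3 libraries in each group. The series has 12 libraries, 3 of the mutant and 3 of each WT compartment (resting, proliferative and hypertrophic), and 6 of them enter this comparison. Members are the genes with at least 5 NRPKM (the authors' normalised RPKM, read density per kilobase scaled to library size) in at least 3 of the 6 libraries, which gave 10029 of the 36186 genes in the table. Mutant libraries come from all chondrocytes of the rudiment and WT proliferative libraries from 1 compartment only, and some perichondrium was caught in both. The effect of the genotype and of the difference in captured cells cannot be told apart in this design. GEO's labels name the compartment of the mutant samples as resting. Levels are given below in NRPKM with the libraries in replicate order, and each difference is the aadd mean minus the WT proliferative mean of log2(NRPKM + 0.1).

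In the growth plate, resting chondrocytes feed columns of dividing proliferative cells, which leave the cell cycle, become prehypertrophic and then enlarge and mineralize their matrix. Ihh from prehypertrophic cells signals through Ptch1 and Smo to the Gli factors and maintains expression of Pthlh, whose product acts on Pth1r to delay maturation. Sox9, Sox5 and Sox6 drive the cartilage matrix genes, while Runx2, Runx3, Sp7, Dlx5 and Mef2c drive maturation toward hypertrophy. Hoxa11 and Hoxd11 pattern the zeugopod.

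The 3 aadd libraries held an estimated 2200000 to 2870000 reads and the 3 WT proliferative libraries 1890000 to 2620000, so 1 read per kilobase was worth 0.349 to 0.529 NRPKM. Xist and the Y-linked genes showed that aadd replicates 1 and 2 were male and replicate 3 female, while WT proliferative replicate 2 was male and the other two were female. In the root mean square distance over log2 values, the aadd libraries lay 0.759 to 0.784 from the WT proliferative mean and 0.507 to 0.595 from the WT resting mean. The WT proliferative libraries were no richer in mitotic transcripts than the WT resting ones, with Mki67, a marker of cycling cells, at 86.1, 83.9 and 82.2 against 102, 91.5 and 97.5. They were set apart by Ihh at 20.1, 27 and 40.5 and Col10a1 at 43.5, 98.9 and 111, markers of prehypertrophic and hypertrophic cells. The proliferative sample thus also held RNA of maturation genes, and which of the captured cells it came from was not tested. The RNA level of the mutated genes does not test the genotype, because a frameshift in the first exon does not stop transcription.

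By the criteria of unadjusted P up to 0.05 and a fold change (FC) of at least 1.5 in a limma fit, 1526 genes or 15.2% of those tested passed. Of these, 968 were higher in aadd (9.65% of all tested) and 558 were lower (5.56%). The share of called genes that were higher was 63.4%, and 52.4% after quantile normalization. After Benjamini-Hochberg adjustment 400 genes or 3.99% were under 0.05, with 225 higher (2.24%) and 175 lower (1.74%). This number was lower without aadd replicate 1 (102), 2 (163) or 3 (108) and without WT proliferative replicate 2 (187) or 3 (256). The median difference over all genes tested was 0.05. The lists below are read against this median and against the 9.65% of all genes called higher and 5.56% called lower. The prehypertrophic, maturation, mineralization, hedgehog, Wnt, BMP, IGF, sulfation, resting, osteoblast, joint and position lists hold genes that the study singled out in these libraries. The direction of these lists is thus not independent evidence. Because the filter can be met in 1 group alone, 95 of the tested genes reached 5 NRPKM only in WT proliferative libraries and 179 only in aadd libraries.

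The maturation program was first read from WT hypertrophic and WT resting libraries, whose values took no part in this comparison. The sets were drawn only from genes that passed the filter over the 6 compared libraries. A gene under 5 NRPKM in every aadd library could enter only through the WT proliferative libraries, and the reverse. How many entered through 1 group alone was not counted, so the shares below are not free of this comparison. Among the genes tested, 386 (3.85%) were higher in WT hypertrophic than in WT resting chondrocytes (P up to 0.05, FC of at least 2, no overlap), and of these 119 or 30.8% were lower in aadd than in WT proliferative cells, against 18 or 4.66% that were higher. The opposite set of 645 genes (6.43%), lower in WT hypertrophic cells, held 247 or 38.3% that were higher in aadd and 37 or 5.74% that were lower. The median differences were -0.30 and 0.51. WT hypertrophic replicate 1 stood apart from the other two, with Spp1, the osteopontin gene of mature hypertrophic cartilage and bone, at 24.1, 1083 and 979 in the 3 libraries. Marker genes of other cells were high in replicates 2 and 3, where the summed NRPKM of 10 osteoclast markers was 1379 and 1023 against 59.3 in replicate 1, that of 10 endothelial markers 288 and 199.8 against 21.0, and that of 10 macrophage markers 114 and 70.7 against 6.52, while the summed cartilage matrix genes were at 941 and 1343 against 3957. Of these 30 markers 2 were among the genes tested and 1 was in the set higher in WT hypertrophic cells, and the part of other genes of such cells, and of the lower share of cartilage RNA, in both sets was not tested. Without replicate 1 the first set grew to 737 genes, of which 17.8% were lower and 9.23% higher in aadd (median -0.08), and the second to 970 genes, of which 9.79% were lower and 29.4% higher (median 0.30). Over all genes tested 5.56% were lower and 9.65% higher in aadd, with a median of 0.05. The 5.74% lower in the second set and the 9.23% higher in the first set without replicate 1 were near these shares. Both sets kept the sign of their medians and the order of their shares without that library, with smaller differences. The median of the first set was then close to that of all genes.

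**Figure D1:**
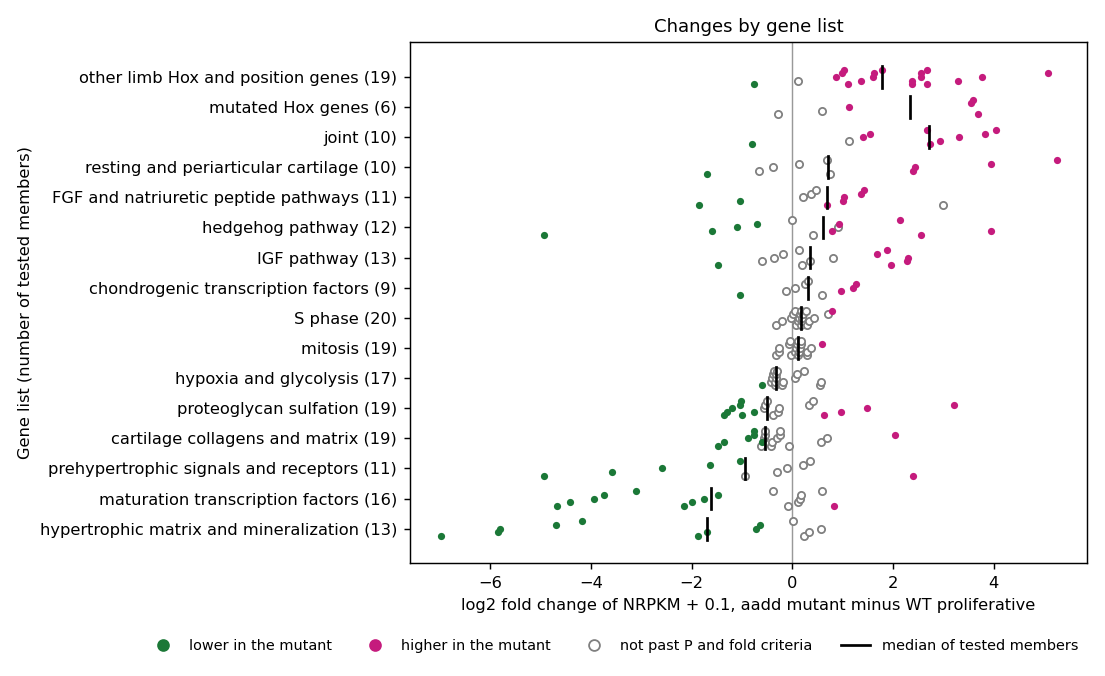
Log2 fold change of NRPKM + 0.1 (aadd mutant minus WT proliferative, x axis) of each tested member of 16 gene lists (y axis, number of tested members in brackets). Filled points passed P up to 0.05 and FC of at least 1.5, open points did not, and the bar is the median of the tested members. The medians run from -1.70 in the mineralization list to 2.71 in the joint list, while S phase and mitosis sit near 0.

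Several prehypertrophic signals, receptors and other listed genes were lower in the mutant, with Ihh near 0. Of 15 listed signals and receptors 11 were tested, and 5 fell and 1 rose, with a median of -0.95 that was the same over all 15 listed. Over all genes 5.56% fell and 9.65% rose. Without aadd replicate 3 the median was -0.43. Ihh (mm10 chr1:74945318-74951651), the hedgehog ligand that prehypertrophic cells secrete, was 1.31, 0.602 and 0.693 in the aadd libraries and 20.1, 27 and 40.5 in the WT proliferative ones. The groups did not overlap and Ihh fell by 4.93 on the log2 scale (SE 0.35, adjusted P = 0.000834), on 4.04 to 11.1 estimated reads in each aadd library. In bulk samples fewer cells expressing a gene and less RNA per cell cannot be told apart, so this value does not say whether a few mutant cells still made Ihh.

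Pth1r, the receptor for parathyroid hormone-related protein, was 8.87, 15.2 and 13 in aadd and 68.1, 70.8 and 81.7 in WT proliferative cells and fell by 2.59 (SE 0.24, adjusted P = 0.00239). Sgms2, a sphingomyelin synthase active in mineralizing cartilage and bone, was 9.6, 18.7 and 13.5 against 135, 165 and 192 and fell by 3.58 (adjusted P = 0.00103). Both genes were separated by several-fold between the highest mutant and the lowest WT proliferative library. Bmp7, a bone morphogenetic protein, was 16.8, 10.4 and 11.7 against 51.4, 27.8 and 43 and fell by 1.63 (adjusted P = 0.0296). Fgfr3, the receptor that restrains chondrocyte division and growth, was 48.7, 47.6 and 37.3 against 78.5, 116 and 82.7 and fell by 1.04 (adjusted P = 0.0488). Both receptors were closer to the WT resting compartment, with 16.4, 18.4 and 16.1 for Pth1r and 58.9, 60.6 and 58.8 for Fgfr3, and neither passed the criteria against it (95% CI of the difference -1.01 to 0.04 and -0.82 to -0.03). For both, every aadd library was still below every WT resting library, a separation in either direction that 15.6% of all genes showed. Fgfr3 missed only the fold criterion (limma, unadjusted P = 0.0375).

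The 1 gene of this list that rose was Pthlh, the ligand made by periarticular and resting chondrocytes, at 25.4, 9.44 and 33 in aadd and 4.04, 5.04 and 2.45 in WT proliferative cells (difference 2.40, SE 0.48, adjusted P = 0.0424). Its WT resting values were 18.7, 18.5 and 16.2, inside the range of the mutant libraries. Not all prehypertrophic products moved. Bmp2 was 18.5, 18.1 and 25.1 against 36.6, 13.8 and 20.9, with a difference of -0.11 (95% CI -0.94 to 0.72) that did not pass. Cdkn1c, the cell cycle inhibitor p57 that is strong in cells leaving the cycle, was 246, 174 and 228 against 234, 285 and 275, with a difference of -0.30 (95% CI -0.77 to 0.17). Bmp6 was 6.36, 9.38 and 2.55 against 12.8, 10.6 and 8.35 and did not pass (difference -0.95, adjusted P = 0.308), but it passed without aadd replicate 2 (-1.35).

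Most of the tested transcription factors of maturation fell. Of 18 listed factors 16 were tested. Among these 9 fell, all 9 under an adjusted P of 0.05, and 1 rose, against 5.56% and 9.65% of all genes. The median was -1.61 over the tested factors and over all listed, and 3 of the 9 reached 5 NRPKM only in WT proliferative libraries. Leaving out any 1 library left 10 or 11 called factors.

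Runx2, the master regulator of chondrocyte maturation and bone formation, was 18.1, 31.3 and 23.5 in aadd and 92.8, 69.2 and 80.6 in WT proliferative cells and fell by 1.76 (SE 0.24, adjusted P = 0.0136). Runx3, of the same family, was 4.79, 4.64 and 5.6 against 73.1, 67.8 and 64.2 and fell by 3.75 (SE 0.17, adjusted P = 0.000137). Runx2 RNA was reduced but present in every mutant library, and Runx3 RNA was reduced further. The Runx2 row overlaps Supt3, at a mean of 9.64 in aadd and 12.6 in WT proliferative cells. Sp7, the zinc finger factor that acts after Runx2, was 2.55, 6.07 and 3.03 against 85.3, 61.7 and 93.2 and fell by 4.41 (adjusted P = 0.00103). Mef2c, an activator of Col10a1, was 11.6, 12.9 and 13.4 against 52.4, 58.1 and 58.6 and fell by 2.15 (adjusted P = 0.00103). The 3 values of Mef2c lay close together in each group, with a mean of 12.7 ± 0.924 (SD, n = 3) in aadd and 56.3 ± 3.44 (SD, n = 3) in WT proliferative cells.

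The homeobox factors Dlx5 and Dlx3 were also low. Dlx5 was 8.8, 12.8 and 16.4 in aadd against 56.1, 43.3 and 49.9 (difference -2.0, adjusted P = 0.00959), and Dlx3 was 0.276, 1.57 and 0.402 against 26, 10.0 and 19.7 (difference -4.67, adjusted P = 0.00925). Dlx3 rested on 2.0 to 9.02 estimated reads in each aadd library, and the ratio of its reads per kilobase and depth was 28.4 (95% exact counting interval 16.7 to 52.5). Shox2, the short stature homeobox gene of proximal limb cartilage, was 3.33, 4.56 and 5.24 against 56.2, 95.7 and 58 and fell by 3.95 (adjusted P = 0.000809). Msx2, another homeobox factor, was 1.99, 3.37 and 3.72 against 9.19, 7.5 and 8.33 and fell by 1.47 (adjusted P = 0.028).

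The factors that did not fall include general partners and inhibitors. Cbfb, the partner subunit of the Runx proteins, was 43.1, 45.2 and 58.5 against 51.6, 41.1 and 42.6 (difference 0.11, 95% CI -0.35 to 0.57). Hdac4, which restrains Runx2 and Mef2c, was 16.9, 20.8 and 10.9 against 14.3, 11.2 and 16.6 (difference 0.17, 95% CI -0.48 to 0.83), and Atf4, Mef2d, Foxa3 and Nfatc2 did not pass either. Zfp521, an antagonist of Runx2 in cartilage, rose from 44.7, 34.3 and 57.1 to 81.4, 87.7 and 69.8 (difference 0.83, adjusted P = 0.103).

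**Figure D2:**
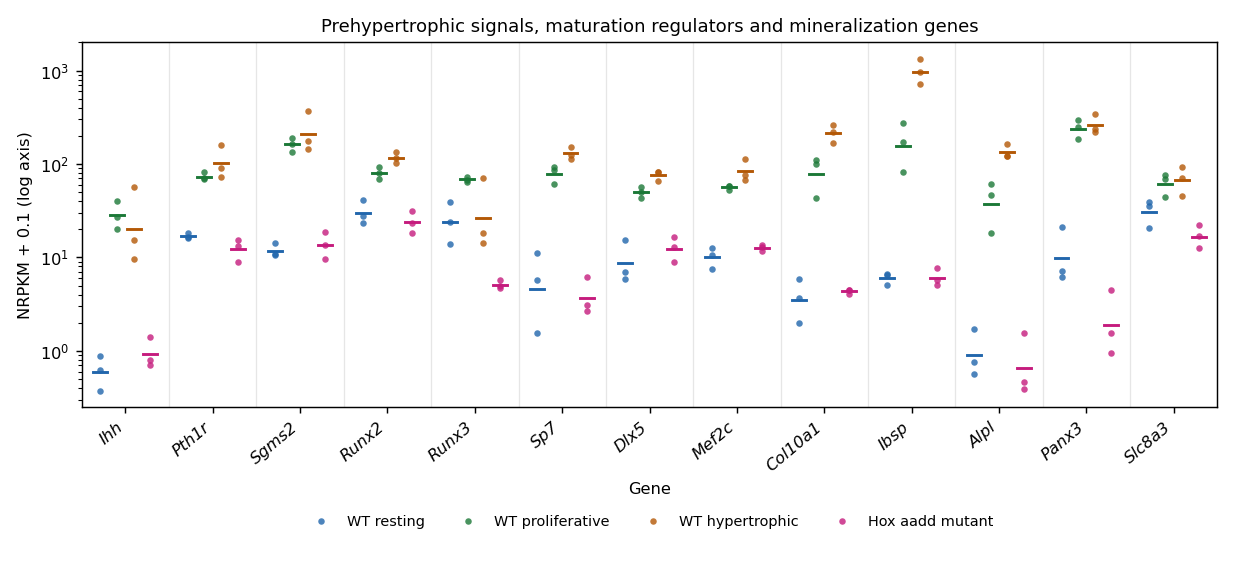
NRPKM + 0.1 (log y axis) of 13 genes (x axis) in the 3 libraries of WT resting, WT proliferative, WT hypertrophic and aadd mutant chondrocytes. Points are libraries and bars their geometric means. In each of the 13 genes the 3 aadd points lie below the 3 WT proliferative points, and for Ihh the aadd range is 0.602 to 1.31 against 20.1 to 40.5.

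RefSeq promoters (GRCm38.p6) of the called genes were searched for the Runx core TGTGGT, the Gli site GACCACCCA and the homeodomain core TAATTA on both strands, in the 250 bases before each start. The search covered 29 genes, those called lower in the prehypertrophic, hedgehog, maturation and mineralization lists and the 10 largest falls below that have a gene name, of which 20 had an entry with 34 starts. The Runx core was in 4 of the 34 (11.8%), against 14.0% of all 32851 promoters. TAATTA was in 4 (11.8%) against 4.84%, and the Gli site was in 0 against 0.225%. The 3 promoters printed here belong to genes on which the maturation result turns and were picked because they hold a match, with the matched letters in capitals (ACCACA is TGTGGT on the other strand).
Runx2 (chr17:44814628-44814877, strand -): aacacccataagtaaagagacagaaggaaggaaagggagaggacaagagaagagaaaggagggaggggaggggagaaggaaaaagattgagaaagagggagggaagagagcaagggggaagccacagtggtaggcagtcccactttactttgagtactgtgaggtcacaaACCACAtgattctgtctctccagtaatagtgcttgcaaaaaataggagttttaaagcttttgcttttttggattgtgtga
Runx3 (chr4:135120395-135120644, strand +): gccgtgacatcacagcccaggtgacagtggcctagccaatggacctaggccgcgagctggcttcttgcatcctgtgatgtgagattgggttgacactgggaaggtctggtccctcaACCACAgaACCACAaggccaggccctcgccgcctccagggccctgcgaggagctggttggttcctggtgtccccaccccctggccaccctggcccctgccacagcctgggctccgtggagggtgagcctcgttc
Col10a1 (chr10:34389731-34389980, strand +): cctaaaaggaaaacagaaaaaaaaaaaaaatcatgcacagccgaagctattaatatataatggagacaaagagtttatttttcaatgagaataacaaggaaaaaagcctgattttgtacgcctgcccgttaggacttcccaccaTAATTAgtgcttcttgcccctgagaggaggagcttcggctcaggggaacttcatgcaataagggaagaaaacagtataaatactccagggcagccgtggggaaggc
Runx3 held 2 Runx cores 2 bases apart, Runx2 held 1, and Col10a1 held 1 TAATTA. These are matches of letters and were not tested as binding sites.

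Genes of the hypertrophic matrix and of mineralization were low in the mutant. Of 20 listed genes 13 were tested. Among these 9 fell (7 with adjusted P under 0.05) and 0 rose, against 5.56% and 9.65% of all genes. The median was -1.70 over the tested genes and -0.99 over all listed. For 4 of the tested genes 5 NRPKM was reached only in WT proliferative libraries. Col10a1 (mm10 chr10:34389981-34397085), the collagen of hypertrophic cartilage, was 3.93, 4.39 and 4.38 in aadd and 43.5, 98.9 and 111 in WT proliferative cells and fell by 4.18 (SE 0.35, adjusted P = 0.00161). Ibsp, bone sialoprotein, was 4.96, 7.57 and 5.61 against 170.0, 82.2 and 278 and fell by 4.70 (adjusted P = 0.00239). Col10a1 lies within the span of Nt5dc1, and whether reads were counted by strand is not given in the sources used here.

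Among the enzymes and channels of mineralization, Alpl, tissue-nonspecific alkaline phosphatase, was 0.286, 1.45 and 0.358 against 47, 18.3 and 60.3 and fell by 5.85 (adjusted P = 0.00479). Smpd3, neutral sphingomyelinase, was 2.11, 3.28 and 1.24 against 80.5, 134 and 161 and fell by 5.80 (adjusted P = 0.000702), and its row overlaps the predicted gene Gm10629. Panx3, a channel protein of prehypertrophic cells and osteoblasts, was 0.856, 1.44 and 4.39 against 186, 294 and 248 and fell by 6.99 (SE 0.53, adjusted P = 0.00103). For each of these genes the highest mutant library was far below the lowest WT proliferative library, and for Alpl it was 1.45 against 18.3. Slc8a3, a sodium-calcium exchanger, fell by 1.88 (adjusted P = 0.0203) from 44.6, 69.2 and 75.3 to 16.7, 22.2 and 12.4. Ppa1, inorganic pyrophosphatase, fell by 1.70 (adjusted P = 0.0282) from 94.3, 189.8 and 127 to 41.9, 31.6 and 49.4.

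Spp1 and Scin made up the remaining falls and were less firm. Spp1 was 6.08, 11.8 and 7.39 against 12.5, 10.7 and 18.3, overlapped between groups and kept its call in 7 of 16 alternatives, with differences of -1.0 to -0.51 when single libraries were left out. Its call was lost without aadd replicate 1 or 3 or WT proliferative replicate 1 or 3. Scin kept its call in 11 of 16, with -0.79 to -0.52, and lost it without aadd replicate 2 or 3 or WT proliferative replicate 2. Members that did not pass included Enpp1, which makes pyrophosphate (31.9, 61.4 and 28.5 against 21.2, 45.2 and 36.5), Anxa5 (97.1, 75 and 92.9 against 75.7, 99.7 and 88.1) and the phosphate transporters Slc20a1 and Slc20a2. Mmp13, Dmp1 and Phospho1 were under the filter over the 6 libraries and were not tested. Phospho1, a phosphatase of mineralizing cartilage, was 0, 0.30 and 0 in aadd against 0.689, 11.3 and 8.73, and all 3 aadd libraries were below all 3 WT proliferative libraries. Dmp1 was 2.6, 2.8 and 1.91 against 3.56, 5.3 and 6.33 and Mmp13 was 2.13, 2.18 and 2.64 against 3.81, 4.12 and 6.24, also without overlap.

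The 10 largest falls under adjusted P with no overlap and at least 5 NRPKM in every WT proliferative library included Panx3, Pltp, Alpl, Smpd3, Slc13a5, Ihh, Ibsp and Dlx3, and 1 Riken locus. Pltp, a phospholipid transfer protein, was 0.209, 0.279 and 0.254 in aadd against 39.1, 16.7 and 15.8 and fell by 5.98 (adjusted P = 0.000426). Its row overlaps Ctsa. The aadd values rest on 1.49 to 1.86 estimated reads a library, and the read ratio was 103 (95% exact counting interval 43.7 to 319). Slc13a5, the citrate transporter of mineralizing cells, was 0.662, 0.457 and 0.644 against 20.4, 16.4 and 34.1 and fell by 5.05 (adjusted P = 0.000426). Read ratios and their intervals cover counting error only.

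Of the 23 genes of the prehypertrophic, maturation and mineralization lists that fell, 15 did not pass the same criteria against WT resting libraries and 7 were lower in aadd than there. In this comparison, which shares the aadd libraries, 6.24% of genes were called, 3.84% higher and 2.40% lower in aadd. The aadd mean minus the WT resting mean was 0.64 (95% CI -0.23 to 1.52) for Ihh, -0.33 (-0.99 to 0.33) for Runx2, 0.31 (-0.55 to 1.16) for Col10a1 and 0.01 (-0.49 to 0.50) for Ibsp. Shox2 was 63.4, 61 and 33.7 in WT resting cells and was lower in aadd (log2 difference -3.53, adjusted P = 0.0126). Runx3 was 39.4, 24.1 and 13.9 in WT resting cells and was lower in aadd by the unadjusted criteria (log2 difference -2.22, adjusted P = 0.0948). Panx3 was 21.1, 7.02 and 6.02 there and was also lower in aadd (log2 difference -2.37, adjusted P = 0.292). Shox2 and Runx3 were lower in each mutant library than in each of the 9 WT libraries. The other 4 genes lower than in WT resting cells were Bmp7, Dlx3, Smpd3 and Slc8a3.

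Wnt pathway genes moved in both directions. Of 28 listed Wnt genes 22 were tested, 6 rose and 4 fell, with a median of 0.04. Over all genes 9.65% rose and 5.56% fell, with a median of 0.05. Lef1, a nuclear effector of canonical Wnt signals, was 2.12, 1.79 and 2.31 in aadd and 20.6, 17.3 and 13.6 in WT proliferative cells and fell by 2.98 (adjusted P = 0.000854), and it was 26.6, 37 and 15 in WT resting cells (log2 difference of aadd from these -3.51, adjusted P = 0.0185). Tcf7, a related factor, was 0.836, 2.54 and 2.65 against 23, 10.4 and 27.8 and fell by 3.32 (adjusted P = 0.0204), with WT resting values of 1.74, 2.09 and 3.09. Lef1 was thus high in both WT compartments and Tcf7 in the proliferative one. The ligand Wnt5a fell by 1.37 (adjusted P = 0.0664) and the antagonist Dkk1 fell by 1.11 (adjusted P = 0.0669). The secreted antagonists Sfrp2, Dkk3 and Wif1 rose, with Sfrp2 at 89.1, 83.3 and 99.9 against 14.1, 12 and 9.55 (difference 2.94, adjusted P = 0.00076), Dkk3 at 65.3, 90.4 and 55.9 against 23.6, 18 and 20.0 (difference 1.76) and Wif1 at 20.9, 32.6 and 22.4 against 4.92, 2.02 and 8.92 (difference 2.44). The other rises were the effector Tcf7l2 (difference 0.66, adjusted P = 0.103) and the receptors Lrp5 (difference 1.10, adjusted P = 0.162) and Fzd8 (difference 1.11, adjusted P = 0.0629). Leaving out aadd replicate 3 ended the call of Tcf7l2 (0.56) and leaving out aadd replicate 1 that of Lrp5 (0.99), and without WT proliferative replicate 2 the difference of Lrp5 was 0.68. The antagonists Sfrp1, Frzb and Sfrp5 did not pass. Axin2, a common target of the pathway, was 6.96, 8.66 and 8.01 against 12.5, 6.9 and 11.9 and did not pass with all libraries (95% CI -0.97 to 0.25), but did without WT proliferative replicate 2 (-0.63).

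Part of the cartilage matrix genes fell, and the main collagens did not pass. Of 20 listed matrix genes 19 were in the table and tested, with 6 falls, 1 rise and a median of -0.54, against 5.56% of all genes called lower and a median of 0.05 over all genes, and no adjusted P was under 0.05. Col2a1, the main cartilage collagen, was 861, 1074 and 720.3 in aadd against 894, 1530.4 and 1488, overlapping and not past the criteria (difference -0.54, 95% CI -1.17 to 0.10), though it passed without WT proliferative replicate 1 (-0.79). Col9a1 at 289, 279 and 214 against 257, 424 and 373 and Matn1 at 219.9, 203 and 148 against 169, 298 and 219 also overlapped and did not pass (95% CI -0.98 to 0.16 and -0.87 to 0.38).

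The falls took in aggrecan, its linker and small matrix proteins. Acan, the main proteoglycan, was 201, 217 and 148 against 248, 407 and 395 and fell by 0.87 (adjusted P = 0.122). Hapln1, which links aggrecan to hyaluronan, was 298, 271 and 357 against 438, 654 and 488 and fell by 0.76 (adjusted P = 0.112). Comp, which binds the collagens, was 107, 142 and 59.3 against 185, 344 and 301 and fell most, by 1.47 (adjusted P = 0.0803). Fmod, a small proteoglycan shared with tendon, rose from 26.8, 61.7 and 131 to 229, 358 and 186 (difference 2.04, adjusted P = 0.0956). Epyc, a small proteoglycan of growth plate cartilage, was 71.7, 71.8 and 57.5 against 84.7, 311 and 186 and fell by 1.35 (adjusted P = 0.151), the second largest fall of the list, a call that was lost without aadd replicate 3 (-1.24). Matn3 and Col27a1 were also called lower. Without aadd replicate 3 the list held 4 called genes and without WT proliferative replicate 1 it held 12, against 7 with all libraries. Without aadd replicate 2 there were 9. Without aadd replicate 1 or WT proliferative replicate 2 there were 5.

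None of the Sox trio passed the criteria. Sox9 was 141, 145 and 186 in aadd against 164, 180.1 and 169.7 (difference -0.13, 95% CI -0.56 to 0.29), Sox5 was 75.4, 52.3 and 77.5 against 50.5, 61.7 and 50.7 (difference 0.32, 95% CI -0.19 to 0.82) and Sox6 was 50.9, 37.1 and 52.8 against 46.8, 45.2 and 41.8 (difference 0.06, 95% CI -0.40 to 0.52). Among the 9 tested chondrogenic factors 3 rose and 1 fell, where 9.65% and 5.56% of all genes did. Zeb1, a zinc finger repressor, rose from 16.9, 13.5 and 15.2 to 34, 43.3 and 29.6 (difference 1.21, adjusted P = 0.0252), and Foxc2 and Arid5b rose by 1.26 and 0.97 (adjusted P = 0.126 and 0.141), the latter not without aadd replicate 2 (0.68). The fall was in Zbtb20, a repressor of Sox9 in hypertrophic cells, at 8.86, 16.1 and 8.04 against 13.9, 26.3 and 27.9 (difference -1.04, adjusted P = 0.174), and was lost without aadd replicate 1 or 3 or WT proliferative replicate 2 or 3 (range -1.36 to -0.85). Zbtb20 overlaps 5 other annotated loci.

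Few cell cycle genes passed. Of 20 S phase genes 1 passed and of 19 tested mitosis genes 1 passed, both higher in aadd, which is under the 9.65% of all genes called higher, with medians of 0.17 and 0.10. Mki67 was 94.8, 85.2 and 91.5 in aadd against 86.1, 83.9 and 82.2 (difference 0.10, 95% CI -0.26 to 0.47). Top2a, a topoisomerase of dividing cells, was 77.9, 64.2 and 80.1 against 68.7, 71.6 and 57.1 (difference 0.17, 95% CI -0.26 to 0.60). Mcm2, a replication helicase subunit, was 32, 24.1 and 29.9 against 30.1, 27.7 and 26.4 (difference 0.02, 95% CI -0.40 to 0.45). The intervals of these 3 genes all lie between -0.40 and 0.60. The 2 genes that passed were Mcm7 (difference 0.79, adjusted P = 0.201) and Cenpf (difference 0.59, adjusted P = 0.196), and leaving out aadd replicate 1 or 3 ended both calls (single-library ranges 0.60 to 1.03 and 0.42 to 0.75). Leaving out WT proliferative replicate 3 ended both as well, replicate 2 ended that of Mcm7 and replicate 1 that of Cenpf.

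One inhibitor separated from the rest. Cdkn1a, the p21 inhibitor of cyclin-dependent kinases, was 3.75, 8.43 and 3.63 in aadd against 27.1, 27.4 and 39.9 and fell by 2.64 (SE 0.35, adjusted P = 0.0114), with 5.5, 11.5 and 11.1 in WT resting and 68.7, 111 and 103 in WT hypertrophic libraries. Ccnd1, the D-type cyclin, was 67.5, 36.6 and 75 against 49.7, 28.8 and 29.2 and did not pass (difference 0.71, 95% CI -0.09 to 1.51), but did without aadd replicate 2 or WT proliferative replicate 1, with differences up to 1.03. Rbl2, a retinoblastoma family gene, rose by 0.68 (adjusted P = 0.123), though not without aadd replicate 2.

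**Figure D3:**
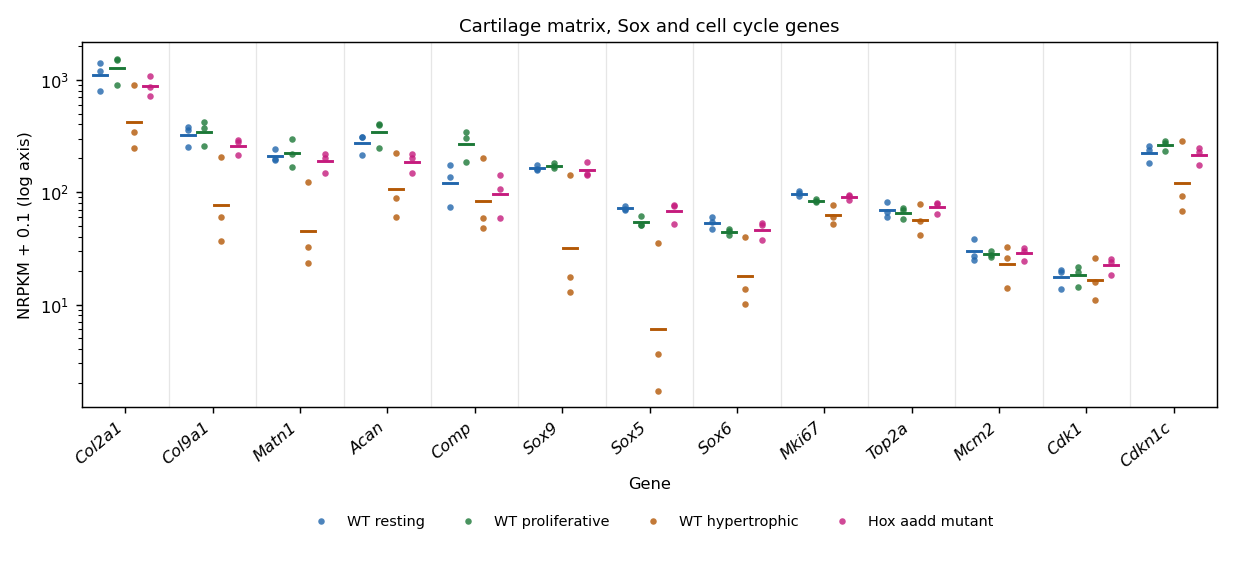
NRPKM + 0.1 (log y axis) of 13 cartilage matrix, Sox and cell cycle genes (x axis) in the 3 libraries of each group. Points are libraries and bars geometric means. The aadd and WT proliferative points overlap for Col2a1, Col9a1, Matn1, Sox9, Sox5, Sox6, Mki67, Top2a, Mcm2, Cdk1 and Cdkn1c, while Acan and Comp are lower in aadd.

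Between aadd and WT proliferative cells, hedgehog pathway genes differed in both directions, among receptors and coreceptors and also among the Gli factors. Of 13 listed genes 12 were tested, and 5 rose and 4 fell, where 9.65% and 5.56% of all genes did. The median was 0.60 (0.40 over all listed, and 0.36 without WT proliferative replicate 2). Besides Ihh, the receptor Ptch1, which is itself induced by the signal, was 49.6, 42.3 and 54 in aadd against 140.0, 146 and 157 and fell by 1.6 (SE 0.17, adjusted P = 0.00498). Gli1, the other standard target, was 13.9, 13.9 and 14 against 20.0, 21 and 28.4 and fell by 0.71 (adjusted P = 0.0967), and without WT proliferative replicate 3 the call was lost (-0.55). Both targets were lower in every mutant library than in every WT proliferative library. WT resting cells, which also held little Ihh RNA (0.783, 0.275 and 0.517), held Ptch1 at 93.6, 87.3 and 73 and Gli1 at 23.6, 38.8 and 29.5, and both were lower in aadd than there (log2 differences -0.80 and -1.10, adjusted P = 0.206 and 0.147, unadjusted criteria passed).

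All 3 coreceptors that help cells bind hedgehog ligand were higher. Gas1 was 47.3, 52.7 and 49.8 in aadd against 2.56, 4.51 and 2.71, a difference of 3.94 (SE 0.24, adjusted P = 0.000524). In the study's immunostaining the rise of Gas1 protein lay mainly in cells beside the chondrocytes. The study relates this to perichondrial cells caught in the samples. Boc was 74.3, 80.4 and 68.9 against 12.1, 11 and 15.1, a difference of 2.55 (adjusted P = 0.001). Cdon was 113, 141 and 111 against 24.3, 26.8 and 31.3, a difference of 2.14 (adjusted P = 0.00229). Boc did not differ by the criteria from WT resting cells (51.5, 109 and 89.3), whereas Gas1 (12, 16.6 and 23.9) and Cdon (48.7, 68.9 and 83) were above them by 1.56 and 0.89.

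Downstream, the transducers Gli2 and Gli3 rose by 0.80 and 0.92 (adjusted P = 0.0582 and 0.0295), with Gli3 at 69.7, 62.7 and 76.5 against 37.1, 36.2 and 36.2. In WT resting cells Gli2 was 33.1, 47 and 42 and Gli3 was 55.8, 62.3 and 54.6. Neither passed the criteria against these (log2 differences -0.14 and 0.27), though the Gli3 values did not overlap. Kif7, a ciliary regulator of the Gli proteins, fell by 1.11 (adjusted P = 0.0613). Smo, the signal transducer, was 63.6, 63.8 and 61.7 against 50.2, 43.7 and 49.4 and Sufu, a Gli inhibitor, was 8.22, 8.05 and 6.14 against 8.47, 4.99 and 9.64, and neither passed. Hhip, a target and antagonist, was 10.4, 7.03 and 16.4 against 4.29, 2.71 and 15.4 and did not pass (difference 0.90, 95% CI -0.56 to 2.36), but did without WT proliferative replicate 3 (1.61).

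**Figure D4:**
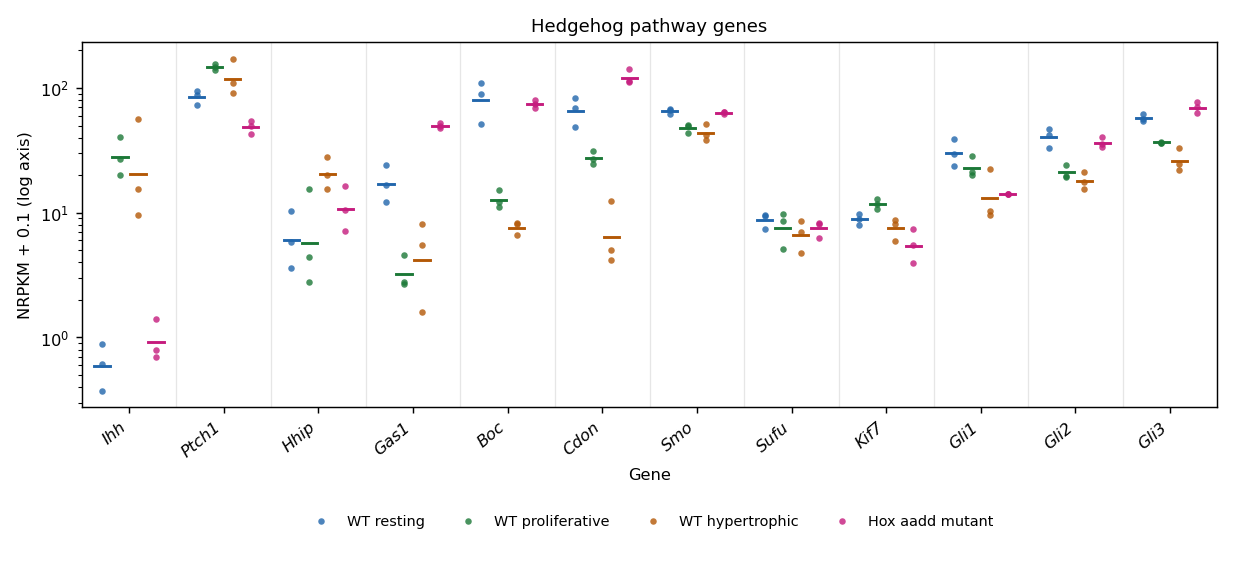
NRPKM + 0.1 (log y axis) of 12 hedgehog pathway genes (x axis) in the 3 libraries of each group. Points are libraries and bars geometric means. Ihh, Ptch1, Kif7 and Gli1 lie lower in aadd than in WT proliferative cells, and Gas1, Boc, Cdon, Gli2 and Gli3 higher, with Gas1 at 47.3 to 52.7 against 2.56 to 4.51.

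BMP, FGF and IGF genes each moved both ways. Of 27 listed BMP and GDF genes 23 were tested, 5 rose and 4 fell, with a median of 0.04. Over all genes 9.65% rose and 5.56% fell, with a median of 0.05. The receptor Bmpr1b rose from 9.03, 4.46 and 4.67 to 28.5, 15.9 and 38.8 (difference 2.16, adjusted P = 0.0322), and the antagonist Grem1 rose by 2.08 (adjusted P = 0.0488). Smad1, which carries the BMP signal to the nucleus, fell by 0.99 (adjusted P = 0.0429), and the pseudoreceptor Bambi fell from 11.1, 11.7 and 11.2 to 4.2, 4.01 and 2.73 (difference -1.63, adjusted P = 0.00959). Id1, Id2 and Id3, common targets of BMP signals, did not pass. In the FGF and natriuretic peptide list, 11 of 18 genes were tested, 5 rose and 2 fell, with a median of 0.70.

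Against the fall of Fgfr3, the early receptor Fgfr1 rose from 35.3, 26.2 and 37.6 to 64.3, 73.7 and 59.7 (difference 1.01, adjusted P = 0.0429). The FGF feedback genes Dusp6, Spry2 and Etv5 rose by 1.42, 1.03 and 1.36 (adjusted P = 0.041, 0.0987 and 0.154). Prkg2, the cGMP-dependent kinase of the natriuretic peptide pathway, fell from 29, 36.8 and 30.4 to 11.4, 6.98 and 8.47 (difference -1.85, adjusted P = 0.00802). Of 13 tested IGF genes 5 rose and 1 fell, where 9.65% and 5.56% of all genes did. Irs1, the insulin receptor substrate, fell from 84.7, 92.6 and 98.8 to 31.1, 47.2 and 24.4 (difference -1.48, adjusted P = 0.0284), and the receptor Igf1r at 36.6, 31.5 and 42 against 51.6, 48 and 42.2 did not pass. Igf1 rose from 12.7, 3.38 and 8.13 to 21, 54.6 and 37.3 (difference 2.29, adjusted P = 0.0613), and the binding proteins Igfbp4, Igfbp5 and Igfbp7 rose by 1.68, 1.96 and 2.27 (adjusted P = 0.0579, 0.0831 and 0.0407). The fifth rise, Igfbp3, had overlapping values (8.68, 31.8 and 13.3 against 5.63, 1.28 and 9.54) and was lost without aadd replicate 2 or 3 or WT proliferative replicate 1 or 2 (range 1.06 to 2.46).

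Several enzymes that build sulfated chondroitin chains fell, and both heparan sulfate endosulfatases rose. Of 20 listed sulfation genes 19 were tested, 7 fell (6 with adjusted P under 0.05) and 4 rose, with a median of -0.50. Over all genes 5.56% fell and 9.65% rose. Slc26a2, the sulfate transporter of cartilage, was 51.1, 44.2 and 37.8 in aadd against 89.9, 146 and 111 and fell by 1.36 (adjusted P = 0.0266). Chst11, a chondroitin 4-sulfotransferase, was 79.8, 89.1 and 71.4 against 135, 191 and 157 and fell by 1.0 (adjusted P = 0.0408). Chst12, Chst15, Chsy3 and Csgalnact1, which build or sulfate these chains, also fell (differences -1.30, -1.20, -1.01 and -1.03, adjusted P = 0.0201, 0.0213, 0.0416 and 0.0433), while Chsy1 and Chpf of the same pathway did not pass. Csgalnact1 overlaps another annotated locus. Sulf1, an extracellular endosulfatase, rose from 9.84, 4.11 and 6.86 to 67, 57.1 and 60.2 (difference 3.21, adjusted P = 0.00301), and Sulf2 rose by 0.96 (adjusted P = 0.0363). Chst3, the chondroitin 6-sulfotransferase, went the other way from Chst11 and rose by 1.48 (adjusted P = 0.00548).

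Of 17 tested genes of hypoxia and glycolysis 1 fell and 0 rose, with a median of -0.31. Over all genes 5.56% fell, so the 1 fall is near the general share, and 9.65% rose. That gene was Slc2a1, the glucose transporter, at 79.1, 69.2 and 65.3 against 99.9, 119 and 106 (difference -0.60, adjusted P = 0.113), and the call was lost without aadd replicate 3 or WT proliferative replicate 2. Ldha and Vegfa, targets of the hypoxia factor, did not pass (95% CI -0.39 to 0.48 and -0.16 to 0.62).

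Joint genes were higher in the mutant than in WT proliferative cells as a list. Their summed level was 299 to 346 NRPKM in aadd, 66.3 to 97.3 in WT proliferative and 156 to 254 in WT resting libraries. Against WT resting cells 5 rose and 0 fell, with a median of 0.80, where 3.84% of all genes were called higher. Against WT proliferative cells 9.65% of all genes rose and 5.56% fell. Of 13 listed joint genes 10 were tested, 8 rose (7 with adjusted P under 0.05) and 1 fell, with a median of 2.71 over the tested genes and 1.55 over all listed, and 3 of the tested genes reached 5 NRPKM only in aadd. Like the other lists named above, the joint and position lists hold genes that the study singled out in these same libraries. The direction of these lists is not independent evidence. Osr1, an odd-skipped factor of joint-forming regions, was 50.7, 54.1 and 41.3 in aadd against 4.75, 4.42 and 5.27, a difference of 3.31 (SE 0.18, adjusted P = 0.000346). Dcx, a microtubule-binding protein of articular chondrocytes, was 31.7, 20.2 and 29.7 against 2.04, 1.21 and 2.35, a difference of 3.82 (adjusted P = 0.00103). Gdf5, the growth factor of the joint interzone, was 34.6, 26.4 and 24.4 against 13.5, 9.71 and 6.63, a difference of 1.55 (adjusted P = 0.0334).

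Osr2 and Creb5, a regulator of articular cartilage, rose by 2.74 and 2.67 (adjusted P = 0.00708 and 0.00778), and Sfrp2, Erg and Gdf6 made up the other rises, while Wnt4 fell by 0.80 (adjusted P = 0.0549). The log2 differences from WT resting cells were 0.48 for Osr2, 0.69 for Creb5, 0.15 for Erg and 0.91 for Sfrp2. They were 2.01 for Osr1, 1.96 for Dcx, 1.44 for Gdf5, 2.13 for Gdf6 and 0.39 for Wnt4. Prg4, lubricin, was under the filter at 3.38, 2.92 and 1.55 in aadd. Of 10 tested resting and periarticular genes 4 rose, Pthlh, Wif1, Barx1 and Gas1, and Cd200 fell, against 9.65% and 5.56% of all genes. Their median was 0.72, and Barx1 and Gas1 reached 5 NRPKM only in aadd. Cd200 was 11.1, 13.7 and 6.71 against 40.1, 27.4 and 32.5 and higher still in WT hypertrophic libraries (139, 125 and 131). Ucma, a product of the distal resting zone, was 9.18, 19.5 and 12.3 against 1.62, 24.8 and 12.7 and did not pass. Its WT resting values were 16.9, 205 and 91.6. Ucma was lower in aadd than there by the unadjusted criteria, with overlapping values (log2 difference -2.38, adjusted P = 0.40).

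The 10 largest rises under the same rule included 4 microRNA loci and Barx1, Hoxd13, Gdf6, Ssc5d and Gas1. The microRNA loci rest on at most 4.10 estimated reads a library and 0 reads in WT proliferative libraries. Barx1, a homeobox factor of articular and stomach development, was 16, 11.4 and 15.8 in aadd against 1.12, 0 and 0.335, a difference of 5.25 (adjusted P = 0.0189). Hoxd13, the most 5′ gene of the HoxD cluster and a regulator of the autopod, was 20.8, 17.6 and 31.2 against 1.7, 0.421 and 0.213, a difference of 5.09 (adjusted P = 0.00725), and its WT resting values were 0.409, 0.503 and 0.315. Gdf6, a relative of Gdf5, was 7.97, 10.8 and 5.79 against 0.108, 0.444 and 0.90, a difference of 4.05 (adjusted P = 0.0116). Ssc5d, a scavenger receptor family gene, was 30.1, 57.3 and 26.2 against 0.615, 4.05 and 3.45, with no mutant library inside the WT proliferative range (difference 4.03, adjusted P = 0.0245).

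The mutated Hox genes themselves were 4 of 6 higher, against 9.65% of all genes. Hoxd9 was 22.5, 23.2 and 29.6 in aadd against 3.09, 3.46 and 0.757, Hoxd10 was 47.3, 39.6 and 52.1 against 3.17, 3.21 and 4.14 and Hoxd11 was 25.1, 30.0 and 35.4 against 2.0, 2.17 and 3.13. Their differences were 3.55, 3.69 and 3.59 (adjusted P = 0.0168, 0.000311 and 0.000646). All 3 HoxD genes were above WT in every library, and the HoxA genes showed smaller differences. Hoxa9 rose by 1.12 (adjusted P = 0.0677), and Hoxa10 (12.2, 6.93 and 15.9 against 10.6, 5.94 and 6.25) and Hoxa11 (11.1, 5.17 and 10.0 against 10.5, 11.3 and 8.94) did not pass. Hoxa11 overlaps the antisense gene Hoxa11os, and without counting by strand the reads of the pair cannot be told apart.

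Of 31 other limb Hox and position genes 19 were tested, 17 rose (14 with adjusted P under 0.05) and 1 fell, with a median of 1.79 over the tested genes, and 8 of the tested genes reached 5 NRPKM only in aadd. Over all genes 9.65% rose and 5.56% fell. The rises covered other Hox clusters, with Hoxc6 at 15.7, 14.7 and 11.7 against 2.08, 3.48 and 1.6 and Hoxc8 at 12.6, 10.4 and 10.9 against 2.42, 3.31 and 4.02, and Hoxd8 at 33.8, 26.1 and 34.4 against 6.71, 8.44 and 1.94. Six2, a homeobox factor that marks progenitors, was 66.7, 74.6 and 92.6 against 22.3, 5.95 and 16.8, a difference of 2.55 (adjusted P = 0.0309). Tbx5, the forelimb identity factor, was 93.3, 90.9 and 104 against 29.6, 10.9 and 19.1 (difference 2.38, adjusted P = 0.0156), with WT resting values of 70.1, 70.1 and 74.9 close below the mutant. Pknox2 and Sall1 rose by 2.67 and 3.29 (adjusted P = 0.00637 and 0.0313). Alx4 was the 1 gene called lower, with overlapping values, and its call was lost without aadd replicate 1 or 3 or any 1 WT proliferative library (range -1.08 to -0.47).

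**Figure D5:**
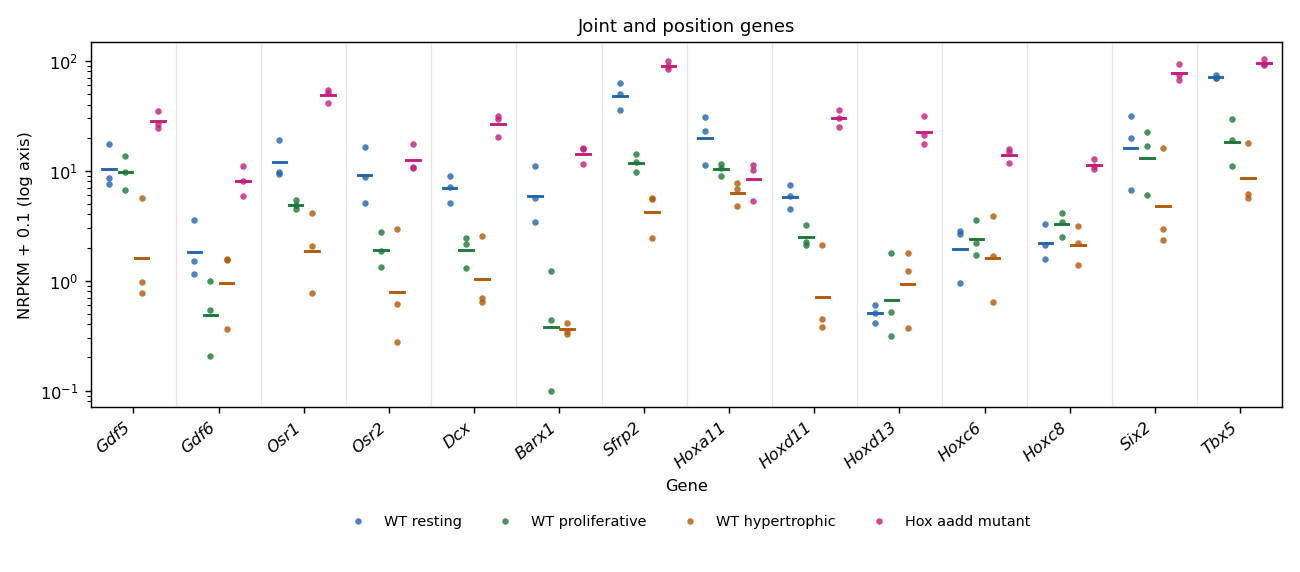
NRPKM + 0.1 (log y axis) of 14 joint and position genes (x axis) in the 3 libraries of each group. Points are libraries and bars geometric means. For 13 genes the 3 aadd points lie above the 3 WT proliferative points, and Hoxa11 overlaps at 5.17 to 11.1 against 8.94 to 11.3.

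Markers of other cells were checked because the mutant sample was the whole chondrocyte population of a rudiment. Of 10 endothelial and of 10 macrophage markers 0 passed the filter, and their summed levels were 5.43 to 36.3 and 2.48 to 29.0 NRPKM in aadd against 6.88 to 13.9 and 7.78 to 15.8 in WT proliferative libraries. The highest values were in aadd replicate 2, with Cdh5, a junction protein of endothelium, at 3.39, 12 and 1.33. Osteoclast markers Acp5 and Dcstamp were 1.11, 2.25 and 1.3 and 0, 0 and 0 in aadd, and of the 10 listed 2 were tested and 0 passed, with sums of 38.0 to 59.0 in aadd and 37.9 to 57.9 in WT proliferative libraries. Muscle markers summed to 21.4 to 75.2 in aadd and 12.3 to 153.5 in WT proliferative libraries, with the top value in WT proliferative replicate 3, and 0 of 3 tested passed. Erythroid markers gave 0 of 5, with sums of 125 to 255 and 64.8 to 208.

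Of 13 tested perichondrial and connective tissue genes 3 were higher and 1 lower, against 9.65% and 5.56% of all genes, with a median of 0.67 against 0.05 over all genes, and sums of 857 to 1668 NRPKM in aadd and 908 to 1695 in WT proliferative libraries. Col1a1, the collagen of perichondrium and bone, was 102, 371 and 127 against 202, 211 and 557, which did not pass except without aadd replicate 2 (-1.34). Lum, a small proteoglycan, fell by 1.24 (adjusted P = 0.0488), and Pdgfra, a receptor of mesenchymal cells, rose from 23.4, 14.3 and 25 to 56.5, 54.1 and 46.3 (difference 1.36, adjusted P = 0.0325). Of 6 tested tendon genes 2 rose and 1 fell, and Mkx, a tendon homeobox factor, rose from 10.1, 10.5 and 12.2 to 27.9, 25.5 and 33.6 (adjusted P = 0.011), with tendon sums of 252 to 329 in aadd and 148 to 231 in WT proliferative libraries. In the osteoblast list 3 of 6 fell and 1, Kazald1, rose (difference 2.92, adjusted P = 0.0421), the falls including Sp7 and Ifitm5, a membrane protein of bone-forming cells, at 8.27, 16.7 and 9.07 against 94.5, 37 and 133. The mature osteoblast gene Bglap was 0.576, 0 and 0 in aadd and 0, 0.838 and 0 in WT proliferative libraries. The part of perichondrial cells in the rises of Gas1 and of joint, position and connective tissue genes was not tested.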

How the data were processed

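RNA from laser-captured chondrocytes of 12 samples was amplified (NuGEN Ovation V2), made into Nextera libraries and sequenced on a HiSeq instrument. TopHat and mm10 are named in the submitters' processing notes, and duplicate and multiply mapped reads were removed. The deposited values are the authors' NRPKM, a normalised RPKM (read density per kilobase scaled to library size), for 36186 rows. Whether reads were counted by strand is not given in the sources used here. Groups came from GEO's labels, and all 12 sample columns were used. The labels do not say whether replicates were separate embryos, so P values measure only the spread between these samples. The study describes its WT and aadd compartments as 3 independent sets. Replicates 1, 2 and 3 were female, male and female in each WT compartment, and whether same-numbered WT libraries share an embryo is not given.

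Genes were kept if 3 or more of the 6 compared libraries reached 5 NRPKM, and log2(NRPKM + 0.1) was fitted with limma 3.58.1 (R 4.3.3), two-sided. Genes with P up to 0.05 and FC of at least 1.5 were called, after the study's criteria, with Benjamini-Hochberg adjusted P from the same fit beside them. A fold change on this scale understates the change of low genes. An exact permutation test of 3 against 3 cannot go below 0.1. Depth was estimated from the step that 1 read makes in genes of 1 exon, since no counts were used: 84.4% to 93.3% of low values lay within 0.05 of whole reads in each library. Sets of WT hypertrophic against WT resting genes used an unpaired fit with P up to 0.05, FC of at least 2 and no overlap.

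Genes are named by a rule: the 10 largest rises and falls with adjusted P under 0.05, no overlap and 5 NRPKM in all 3 libraries of the higher group (loci without a gene name only counted), and list members by role, whether they passed or not. Some genes that the rule takes are counted and not reported here. The members, lists and rule were chosen with earlier results of these data known. Alternatives were other pseudocount, filters, scalings, fold criterion, covariates, a replicate block, the fit to all 12 libraries and leaving out each library. A filter of 5 NRPKM in all 3 libraries of 1 group, and the sets without WT hypertrophic replicate 1, were added after seeing the data. The fit was tested on simulated data with known changes. Promoters (250 bases before each start) came from RefSeq, GRCm38.p6.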

Additional observations from a re-analysis of the deposited data

How the results depend on the processing

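Without a filter 2530 genes were called and 98 had an adjusted P under 0.05, over more genes tested, and at FC of at least 2 the number called was 714. The other pseudocount, filters, scalings and fits gave 1402 to 1732 called genes and 328 to 568 with an adjusted P under 0.05. Leaving out each library in turn gave 1299 to 1822 called genes and 102 to 433 with an adjusted P under 0.05. Same-numbered aadd and WT proliferative libraries deviated together with correlations of 0.10, 0.00 and -0.12, so the numbers were not taken as pairs, and the fit with a replicate block gave 1557 called genes and 154 with an adjusted P under 0.05. Quantile normalization called 757 of 1444 genes higher in aadd (52.4%), against 968 of 1526 (63.4%). The median of the hedgehog list was 0.40 without a filter and 0.54 with median-of-ratios scaling, and 0.36 to 0.67 leaving out each library. The median of the mineralization list was -1.01 without a filter and with the filter over 12 libraries, -1.76 with median-of-ratios scaling, -1.59 with quantile normalization and -1.76 with sex as a factor, and -1.94 to -1.44 leaving out each library. The median of the cartilage matrix list was -0.17 with quantile normalization, and that of the prehypertrophic list -1.11 to -0.43 leaving out each library. The causes of these shifts were not tested. Of 170 list and named genes checked in the comparison with WT proliferative cells, 134 kept their side of the criteria under all 16 alternatives, 16 of these being uncalled genes whose difference changed sign in at least 1, 26 lost a call and 10 gained one under at least 1, and 0 changed sign while called. With 3 libraries a group and 1890000 to 2870000 estimated reads, genes under 5 NRPKM rest on few reads.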
